A study of Mus musculus with 2 samples.

Results

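Cell division leaves a mark on the transcriptome that can be read cell by cell, and 58 genes that carry this mark are described here: 28 genes used as markers of S phase and 30 used as markers of G2 and mitosis (G2/M). They were named by symbol, no measured level entered the choice rule, and all 58 are among the 28000 genes of the count tables. The counts come from 1 wild type (WT) and 1 *Hira* knockout (KO) library of tdTomato+ cells sorted from mouse trunk skin at E15.5. WT embryos were *TyrCre::Hira* wt/wt and KO embryos *TyrCre::Hira* fl/fl. Both carried the Cre transgene and a *LSL-tdTomato* reporter, on a mixed strain background close to C57BL/6J. Cre was driven by the *Tyr* promoter, which acts in melanoblasts but also in other lineages of the neural crest, so the reporter marks more than melanoblasts. With 1 library per genotype there is no replicate, and no test was made. All intervals given are 95% intervals, of the counting error of UMIs for levels and ratios and over cells for shares. They say nothing about how embryos differ.

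The S genes act in DNA replication: they unwind the double helix, supply nucleotides, load the sliding clamp, deposit histones behind the fork and answer damage. The G2/M genes act afterwards, when CDK1 with its B-type cyclins drives cells into mitosis, chromosomes condense and attach to the spindle, and the anaphase-promoting complex (APC/C) marks cyclin B for destruction so that the cell can exit. In the embryo, melanoblasts, Schwann cell precursors and dermal fibroblasts all divide while the skin grows. HIRA is a chaperone that places histone H3.3 into chromatin outside replication. Whether its loss changes the cycling of melanoblasts and of the cells around them is the question that the comparison of the libraries bears on.

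The WT library held 7073939 unique molecular identifiers (UMIs) in 1546 barcodes, with a median of 3961 per barcode, and the KO library held 5049514 in 846, with a median of 5152.5. No barcode was shared between the libraries. After filtering, 1540 WT and 828 KO cells fell into 19 clusters, which were named from marker genes except for 1. The clustering did not use the 58 genes or a list of other cell cycle genes. Some genes that vary with the cycle, such as *Tubb5*, *Arl6ip1* and *Ranbp1*, were not on that list and were not held out. Melanoblast-like cells numbered 535 in WT and 139 in KO, glial-like cells 447 and 254, and mesenchymal-like cells 215 and 256. Their median depths were 4343 and 5654 UMIs, 3372 and 4208, and 4414 and 5373.5, so that the KO cells were deeper in each of these classes. For that reason shares of cells are given at an equal depth of 2000 UMIs per cell, reached by thinning. Levels are UMIs that were summed over a class and scaled to all UMIs of that class (CPM). Each UMI counts 1 tag at the 3′ end of a molecule, so no length was divided out.

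The genotype labels were checked against *Hira* (ENSMUSG00000022702), which had 35 UMIs in melanoblast-like cells of WT and 3 in those of KO, so that its log2 ratio was -1.97 (-4.31 to -0.30). Among glial-like cells it had 18 and 9 UMIs, a log2 ratio of -0.55 (-1.89 to 0.68). In mesenchymal-like cells it had 8 and 16, a log2 ratio of 0.49 (-0.82 to 1.92), so that a loss of *Hira* was not detectable at this depth outside melanoblast-like cells. The female transcript *Xist* was counted 6144 times in melanoblast-like cells of WT and 2 times in those of KO, against 0 and 47 times for the Y-linked *Eif2s3y*. The WT library is thus female and the KO library male, and effects of sex, genotype and library cannot be told apart. RNA of other cell types also differed between the libraries. The globin transcript *Hbb-bs* was at 42.2 CPM in melanoblast-like cells of WT and 671 CPM in those of KO, and at 50.8 and 719 CPM in mesenchymal-like cells. The 10 keratinocyte markers, led by *Krt10*, summed to 73.3 and 576 CPM in melanoblast-like, 88.3 and 634 CPM in glial-like, and 76.2 and 589 CPM in mesenchymal-like cells. *Trp63* was at 0 in melanoblast-like cells of both libraries and, with *Krt15* and *Perp*, in WT mesenchymal-like cells, while *Dsp* was at 0 in WT glial-like cells. The 9 mast cell markers, led by *Cma1* or in KO glial-like cells by *Cpa3*, leaned the other way with 125 and 22.4, 135 and 30.1, and 113 and 20.5 CPM. *Fcer1a* was at 0 in all 3 classes of both libraries, and 1 to 3 of *Ms4a2*, *Gata2* and *Mcpt4* were at 0 with it. Of 11 mesenchymal markers, led by *Fbln1* in WT and *Col1a2* in KO, melanoblast-like cells held 167 and 506 CPM, with 0 markers at 0. The 8 neutrophil markers, led by *S100a8*, summed to 37.1 and 216 CPM in melanoblast-like, 31.3 and 212 CPM in glial-like and 31.1 and 222 CPM in mesenchymal-like cells, with 0 and 2, 1 and 1, and 3 and 1 of them at 0. The part of this RNA in the values below was not tested.

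Both gene sets were expressed in every main class of both libraries, and G2/M genes were the ones that set the libraries apart. Summed over the 30 G2/M genes, mesenchymal-like cells had 4636 CPM in WT (4507 to 4767) against 2657 CPM in KO (2575 to 2740.3), a log2 ratio of -0.80 (-0.86 to -0.74). Melanoblast-like cells had 4518 CPM (4436 to 4602) against 3895 CPM (3763 to 4029.9), with a log2 ratio of -0.21 (-0.27 to -0.16). Glial-like cells had 3552 CPM (3461 to 3644) against 3804 CPM (3694 to 3917), with a log2 ratio of 0.10 (0.04 to 0.16). The KO to WT ratio was thus lowest in mesenchymal-like cells, and the differences between the classes were not tested.

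The S genes differed less. Their 28 members summed in mesenchymal-like cells to 1597 CPM in WT (1522 to 1675) against 1358 CPM in KO (1299 to 1418), with a log2 ratio of -0.23 (-0.33 to -0.14). In melanoblast-like cells the sums were 1759 CPM (1708 to 1811) and 1706 CPM (1619 to 1796), and in glial-like cells 1465 CPM (1407 to 1525) and 1472 CPM (1404 to 1543). The log2 ratios of these classes were -0.04 (-0.13 to 0.04) and 0.01 (-0.08 to 0.10), so that a difference of these 28 genes was not detectable at this depth.

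Smaller classes varied more widely. Neutrophil-like cells (7 in each library) had 2960 and 9139 CPM of G2/M genes, on 46 and 427 UMIs, and pericyte-like cells (3 WT, 5 KO) 1496 and 6429 CPM, on 11 and 193. Mast cell-like (92 WT, 3 KO) and endothelial-like cells (21 WT, 8 KO) went the other way, with 3009 and 1474 CPM on 894 and 17 UMIs and 4708 and 3151 CPM on 386 and 161. Macrophage-like cells (146 WT, 35 KO) had 3082 and 3449 CPM of G2/M genes and 1221 and 1117 CPM of S genes. Keratinocyte-like cells (12 WT, 81 KO) had 3277 and 3357 CPM of G2/M genes and 1349 and 897 CPM of S genes. Adipocyte-like cells (45 WT, 8 KO) had 3813 and 4013 CPM of G2/M genes and 2126 and 1458 CPM of S genes. Erythroid-like cells (5 WT, 19 KO) had 6 and 39 UMIs of G2/M genes, or 291 CPM (107 to 634) and 308 CPM (219 to 421), and 2 and 8 UMIs of S genes, or 97.1 and 63.1 CPM. Their sums were the lowest of the named classes, below those of all 3 main classes in each library, and whether these UMIs are free RNA was not tested.

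**Figure D1:**
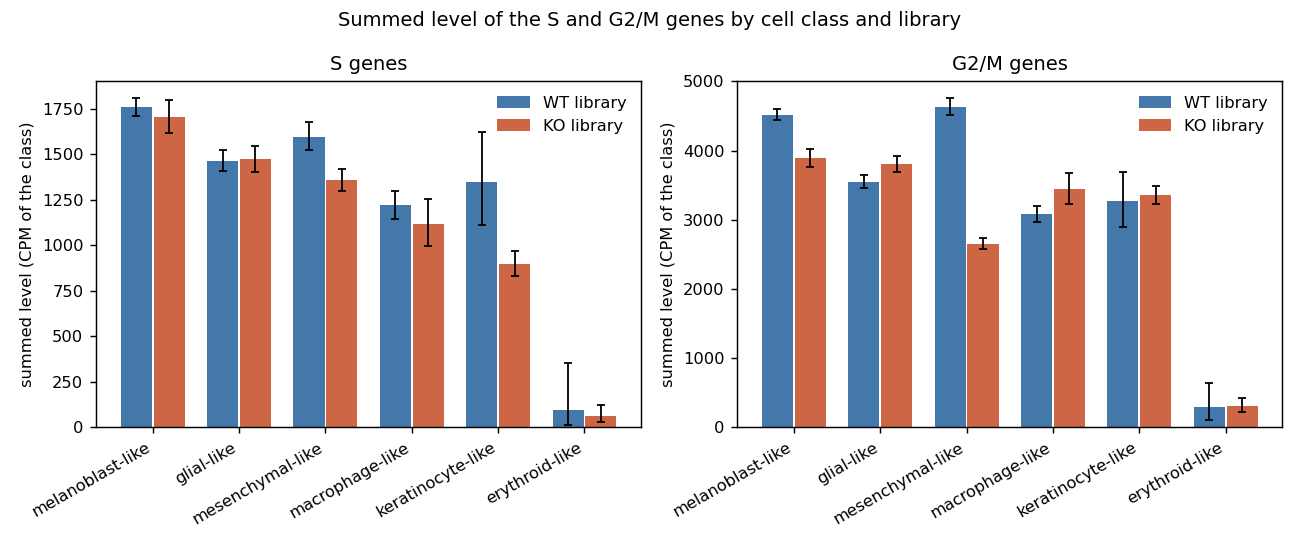
Summed level of the 28 S genes (left) and the 30 G2/M genes (right) in CPM of the class, for 6 cell classes. Blue bars are the WT library, red bars the KO library, and black lines the 95% Poisson intervals of the counts. The widest gap between the libraries is that of the G2/M genes in mesenchymal-like cells, 4636 against 2657 CPM, while erythroid-like cells lie near the floor in both panels.

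Within each list a few genes carried much of the signal. *Hmgb2* (ENSMUSG00000054717, chromosome 8 of GRCm38, 57511907 to 57515999), a DNA-bending protein of mitotic chromosomes, made up 32.2% (WT) and 31.2% (KO) of the G2/M UMIs of melanoblast-like cells. Its share was 31.5% and 29.8% in glial-like and 31.8% and 32.1% in mesenchymal-like cells, so that it hardly varied. With the CDK-binding subunits *Cks2* and *Cks1b*, it made up 48.5% and 50.9% of the G2/M UMIs of melanoblast-like cells. The S list was more even, and *Nasp*, a histone chaperone, led it in melanoblast-like cells with 10.3% of the S UMIs in each library. *Slbp*, which binds the stem-loop of histone mRNA, led it in mesenchymal-like cells with 10.5% in WT and 10.8% in KO. Median levels of a single S gene lay between 33.4 and 44.1 CPM over the 3 classes and both libraries, and those of a G2/M gene between 39.7 and 72.5 CPM. All 58 genes had UMIs in each of these classes in each library, down to *Exo1* at 5.30 CPM in KO mesenchymal-like cells.

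In mesenchymal-like cells, 25 of the 30 G2/M genes had the 50 UMIs needed for a ratio to be read, and 19 of them were at least 1.5-fold lower in KO, whereas 6.4% of the 5060 genes read in this class were. None was 1.5-fold higher, against 11.1% of all genes. The median log2 ratio of the 25 genes was -0.79, beside -0.02 for all genes, and 24 of them were below 0, beside 52.7% of all genes. Each role in mitosis had at least 1 gene past the fold. Both genes of the APC/C step were among the lower ones. *Ube2c* (ENSMUSG00000001403), the ubiquitin-conjugating enzyme of the APC/C, was at 286 CPM in WT (255 to 320.1) against 113 CPM in KO (96.2 to 131), a log2 ratio of -1.35 (-1.63 to -1.07). *Cdc20* (ENSMUSG00000006398), its activator, was at 154 CPM (132 to 180) against 64.2 CPM (52.1 to 78.3), with a log2 ratio of -1.27 (-1.64 to -0.89).

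Among CDK1, its cyclins, subunits and phosphatase, 5 of 6 genes read were past 1.5-fold lower in mesenchymal-like cells. *Cdk1* itself was at 179 CPM in WT against 104 in KO, and *Ccnb1* (ENSMUSG00000041431), which encodes cyclin B1, at 104 and 47.0 CPM. Their log2 ratios were -0.78 (-1.10 to -0.47) and -1.15 (-1.60 to -0.71). *Ccnb2* was at 155 and 90.0 CPM, *Cks2* at 463 and 271 CPM, and *Cdca3*, which helps to degrade the CDK1 inhibitor WEE1, at 129 and 63.5 CPM. *Cks1b* was the member of this group that did not reach 1.5-fold, with 338 and 298 CPM and a log2 ratio of -0.18 (-0.38 to 0.02). With each library clustered alone, *Cdk1* (-0.55) and *Cks2* (-0.54) did not reach it either.

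Of the mitotic kinases and the passenger complex, 5 of 6 genes read were past 1.5-fold lower there. *Birc5*, which encodes the passenger protein survivin, was at 314 CPM in WT (281.5 to 349.9) against 160.2 CPM in KO (141 to 182), a log2 ratio of -0.97 (-1.22 to -0.73). *Aurka*, the kinase of the spindle poles, was at 32.0 and 12.6 CPM, a log2 ratio of -1.35 (-2.24 to -0.50). *Cdca8*, which encodes the passenger protein borealin, had a log2 ratio of -0.63, *Pbk*, a mitotic kinase, -0.78, and *Plk1*, the polo kinase, -0.75, the last with an interval that reached 0 (-1.55 to 0.03). *Aurkb*, the kinase of the passenger complex, was at 40.5 and 34.4 CPM, a log2 ratio of -0.23 (-0.84 to 0.38), and did not follow the others past the fold. Of the 5 genes, *Pbk* and *Cdca8* fell short of it with each library clustered alone (-0.577 and -0.47) and *Plk1* with cells thinned (-0.0627).

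The spindle, kinetochore and cytokinesis group had 6 of 8 genes past 1.5-fold lower in mesenchymal-like cells, with a median log2 ratio of -1.30. *Kif23* (ENSMUSG00000032254), a kinesin of the midzone that cytokinesis needs, had the lowest ratio of the members read in this class, at 32.9 CPM in WT against 11.3 in KO, on 35 and 17 UMIs, and a log2 ratio of -1.55 (-2.48 to -0.67). *Nusap1*, which binds spindle microtubules, was at 119 and 47.0 CPM, *Hmmr* at 53.6 and 20.5 CPM, *Cenpe*, the kinetochore motor, at 40.5 and 15.9 CPM, and *Cenpf* at 99.7 and 41.7 CPM. *Tpx2*, which activates Aurora A, was at 40.5 and 25.2 CPM, and fell short of the fold with each library clustered alone (-0.46). The exceptions were *Tacc3*, at 61.2 and 42.4 CPM, and *Kif11*, the motor that separates the spindle poles, at 18.8 and 22.5 CPM, the one G2/M gene read with a ratio above 0 (0.26, -0.58 to 1.13). In the chromosome structure group, *Hmgb2* was at 1473 CPM in WT against 853 in KO, a log2 ratio of -0.79 (-0.90 to -0.68). *Top2a*, the topoisomerase that untangles chromosomes, was at 183 and 125 CPM, and *Mki67*, which coats them, at 40.5 and 29.1 CPM. The log2 ratios of these last 2 genes, -0.55 (-0.84 to -0.25) and -0.47 (-1.11 to 0.17), fell short of the fold.

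The S genes of mesenchymal-like cells gave 2 genes past 1.5-fold lower out of 21 read and 0 higher, beside 6.4% and 11.1% of all genes, with a median log2 ratio of -0.19. A count of 2 is near what the share of all genes gives. *Rrm2* (ENSMUSG00000020649), the regulated subunit of ribonucleotide reductase, was at 104 CPM in WT (85.9 to 126) against 58.2 CPM in KO (46.7 to 71.8), a log2 ratio of -0.84 (-1.26 to -0.43). *Nasp* (ENSMUSG00000028693) was at 167 CPM (143 to 193) against 106 CPM (90.1 to 124), with a log2 ratio of -0.65 (-0.97 to -0.34). With cells thinned, *Nasp* was at -0.33, short of the fold, and *Rrm2* at -1.94. Nucleotide synthesis was the S group with the lowest sum ratio, -0.55, and *Tyms*, which makes thymidylate, was at 147 and 111 CPM. *Pcna*, the sliding clamp, stayed level at 106 and 103 CPM, as did *Tipin*, which steadies stalled forks, at 118 and 119.8 CPM. Of the helicase genes, *Mcm6* was at 66.8 and 60.2 CPM and *Gins2* at 74.3 and 63.5 CPM. The 7 other S genes and 5 G2/M genes had 22 to 49 UMIs in this class and were not read singly.

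The mesenchymal-like class was not made of the same cells in both libraries, and this bears on all of these values. It joined a cluster 3 led by *Crabp1*, with 171 WT and 101 KO cells, and a cluster 4 led by *Mfap5*, with 44 WT and 155 KO cells. Cluster 3 held 79.5% of the WT but 39.5% of the KO cells of the class. It was also richer in G2/M RNA, with 5193 CPM (5044 to 5346) in WT, against 1963 CPM (1766 to 2177) in the WT cells of cluster 4. Within cluster 3 the KO cells had 3457 CPM (3312 to 3606), for a log2 ratio of -0.59 (-0.66 to -0.51). Within cluster 4 they had 2101 CPM (2007 to 2198), for a log2 ratio of 0.10 (-0.07 to 0.26). The lower G2/M level of the KO class was therefore present in smaller size in the *Crabp1* cluster and not detectable in the *Mfap5* cluster, and how much of it goes with the share of each cluster was not tested.

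Gene by gene, 11 of 21 G2/M genes read in cluster 3 were past 1.5-fold lower in KO, beside 5.66% of all genes there, and none was higher, beside 4.84%. All 21 were below 0, with a median log2 ratio of -0.64 beside -0.03 for all genes, and *Ube2c*, *Cdc20*, *Ccnb1*, *Cdk1*, *Nusap1*, *Cenpe*, *Cenpf* and *Hmmr* were among the 11. Of 15 S genes read in cluster 3, *Rrm1*, *Rrm2* and *Nasp* were lower and 0 higher, and the summed S ratio was -0.08 (-0.20 to 0.03). In cluster 4, 0 of 11 G2/M genes read were past the fold in either direction, beside 6.97% lower and 13.1% higher among all genes. Of 9 S genes there, *Gmnn* was higher and *Dtl* lower, and the summed S ratio was 0.22 (-0.01 to 0.45).

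**Figure D2:**
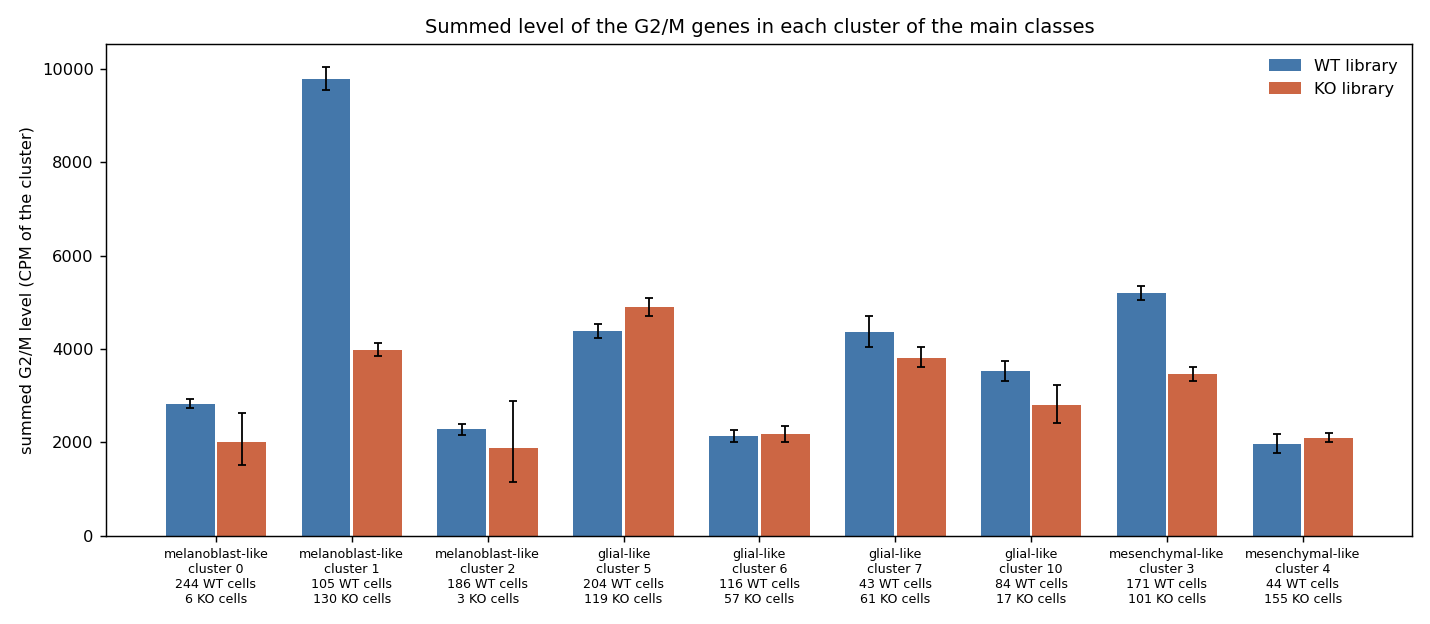
Summed level of the 30 G2/M genes in CPM of the cluster, for the 9 clusters of the main classes, with the number of cells under each. Blue bars are the WT library, red bars the KO library, and black lines 95% Poisson intervals. In mesenchymal-like cells the libraries differ in cluster 3 and not in cluster 4, and in melanoblast-like cells the WT cells of cluster 1 stand above all others at 9796 CPM.

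In melanoblast-like cells the G2/M genes were slightly lower in KO as a set, but hardly any single gene was far from its WT level. Of 27 G2/M genes read, only *Nusap1* was past 1.5-fold lower, where 6.48% of all 5429 genes were, and 0 were past 1.5-fold higher, where 6.74% of all genes were. The median log2 ratio of the 27 was -0.26, beside -0.02 for all genes, and 23 were below 0, beside 52.6% of all genes. *Nusap1* (ENSMUSG00000027306) was at 116 CPM in WT (103 to 130.3) against 69.4 CPM in KO (52.8 to 89.5), a log2 ratio of -0.74 (-1.17 to -0.34). *Hmgb2* was at 1456 and 1214 CPM, *Top2a* at 253 and 194 CPM and *Birc5* at 240.5 and 169 CPM, with log2 ratios of -0.26 (-0.36 to -0.16), -0.38 (-0.64 to -0.13) and -0.51 (-0.78 to -0.24). The genes of mitotic exit were near their WT level, with *Ube2c* at 279 and 258 CPM and *Cdc20* at 94.2 and 89.4 CPM. *Cks1b* leaned the other way, with 317 and 363 CPM and a log2 ratio of 0.20 (0.00 to 0.39).

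The S genes of melanoblast-like cells had a median log2 ratio of 0.01 over 26 genes, with 2 past 1.5-fold higher in KO, where 6.74% of all genes were, and 2 lower, where 6.48% were. Such counts are near what the shares of all genes give. *Cdc45* (ENSMUSG00000000028), a part of the active helicase, had 60 UMIs in WT and 6 in KO, or 23.7 CPM (18.0 to 30.4) against 7.06 CPM (2.59 to 15.4), with a log2 ratio of -1.74 (-3.25 to -0.54). *Mcm4* (ENSMUSG00000022673), another helicase gene, was at 21.7 and 35.3 CPM, a log2 ratio of 0.70 (0.01 to 1.37). *Pola1*, a subunit of the priming polymerase, had a log2 ratio of -0.77 (-1.80 to 0.14) and *Blm*, a helicase of DNA repair, of 0.61 (-0.20 to 1.38), both on intervals that held 0. With cells thinned, the ratio of *Cdc45* was -0.40, short of the fold, and that of *Pola1* turned to 0.11. These are the scarcer genes of the list, and the abundant ones were nearer to level, with *Pcna* at 130.1 and 159 CPM, *Nasp* at 181 and 176 CPM and *Tipin* at 164 in both.

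Melanoblast-like cells were also split unevenly. Cluster 0, led by *Pmel*, held 244 WT and 6 KO cells, cluster 1, led by *Bhlhe41*, 105 and 130, and cluster 2, led by *Mt2*, 186 and 3. Cluster 1 thus took 19.6% of the WT but 93.5% of the KO cells of the class. Its WT cells were rich in G2/M RNA, at 9796 CPM (9561 to 10035), where those of clusters 0 and 2 had 2820.2 and 2274 CPM. The 58 genes had no part in the clustering, but not every gene that varies with them was held out. The KO cells of cluster 1 had 3984 CPM (3848 to 4123), for a log2 ratio of -1.30 (-1.36 to -1.24), and 25 of 26 G2/M genes read were past 1.5-fold lower, beside 9.25% of all genes, with 0 higher, beside 7.04%. The summed S ratio there was 0.00 (-0.11 to 0.11), with *Tyms* the one gene of 15 past the fold, lower. At Leiden resolution 2 the pairing was not kept, and most KO cells lay in a cluster of 10 WT and 126 KO cells. Cluster 1 set a part of the WT melanoblast-like cells that was rich in G2/M RNA beside nearly all KO ones. The parts of makeup and genotype in the ratio of cluster 1, or in that of the whole class, were not tested.

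In glial-like cells 0 of 27 G2/M genes read reached 1.5-fold in either direction, where 6.36% of all 5678 genes were higher and 5.48% lower in KO. Their median log2 ratio was 0.08, beside -0.03 for all genes. Of the 27, 20 were above 0 and 7 below, where 53.9% of all genes were below 0. *Ube2c* was at 255 CPM in WT against 264 in KO, *Hmgb2* at 1119.7 and 1135 CPM and *Cdk1* at 118 and 126 CPM. The highest ratio was that of *Cenpf*, 0.40 (0.06 to 0.74), on 92.5 and 122 CPM, and *Top2a* followed the same way with 180 and 221 CPM and 0.30 (0.05 to 0.54). Of 22 S genes, *Mcm4* was past 1.5-fold lower, at 27.0 and 16.7 CPM, with a log2 ratio of -0.69 (-1.53 to 0.11), and 0 were higher. *Gmnn*, which blocks relicensing of origins, was at 76.0 and 103.8 CPM, a log2 ratio of 0.45 (0.08 to 0.82). The 4 glial-like clusters went both ways in their G2/M log2 ratio. It was -0.33 (-0.56 to -0.11) in a cluster of 84 WT and 17 KO cells led by *Gm29865*. In one of 43 and 61 cells led by *Pou3f1* it was -0.20 (-0.33 to -0.06). It was 0.03 (-0.11 to 0.17) in one of 116 and 57 cells led by *Sostdc1*. The highest was 0.16 (0.08 to 0.24), in the one of 204 and 119 cells led by *Pcdh20*. The *Pou3f1* cluster held 9.62% of the WT but 24.0% of the KO cells of the class. The part of this makeup in the class ratio was not tested.

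Set side by side, 23 G2/M genes were read in all 3 classes, and 22 of them had their lowest ratio in mesenchymal-like cells. Of 21 S genes read in all 3, 9 did. The share of all genes with their lowest ratio there was not counted, so these counts have no background to be read against. The count over classes shares the same pair of libraries, so it describes these libraries and adds no replicate. By role, the sums in mesenchymal-like cells had log2 ratios of -1.32 for mitotic exit, -0.84 for the kinases, -0.75 for chromosome structure and -0.65 for CDK1 and its partners. In melanoblast-like cells they were -0.10, -0.28, -0.28 and -0.08 in the same order, and in glial-like cells 0.13, 0.08, 0.06 and 0.12. Spindle, kinetochore and cytokinesis genes summed to 524 and 263 CPM in mesenchymal-like, 513 and 393 CPM in melanoblast-like and 439 and 493 CPM in glial-like cells. Mitotic exit, with 2 genes, had the lowest ratio in mesenchymal-like cells (-1.54 to -1.10) and nearly the highest in melanoblast-like cells (-0.30 to 0.09). Its interval overlapped that of the spindle group in the former (-1.19 to -0.81) and those of all other G2/M roles in the latter. A difference in the order of the roles was thus not resolved.

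**Figure D3:**
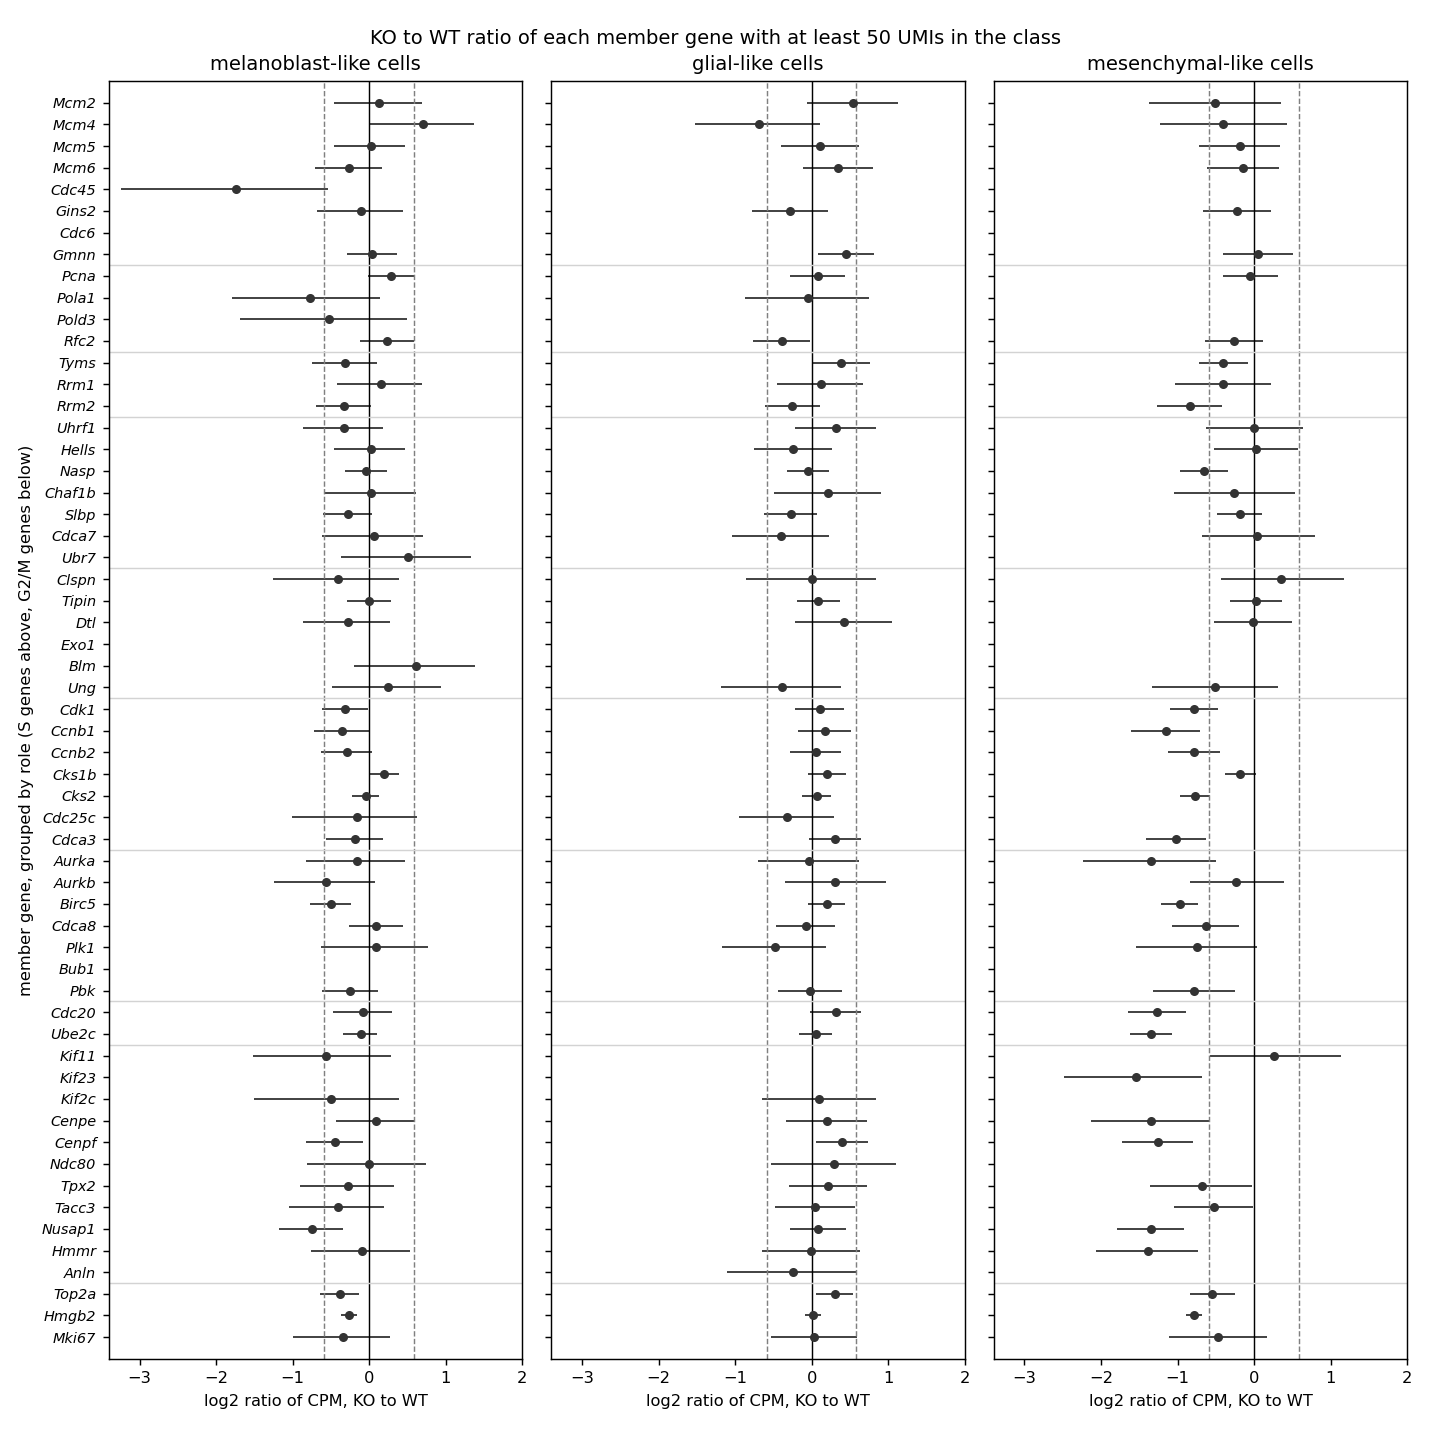
Log2 ratio of KO to WT CPM (horizontal axis) for each member with at least 50 UMIs in melanoblast-like (left), glial-like (middle) and mesenchymal-like cells (right). Points are ratios, bars 95% binomial intervals, dashed lines 1.5-fold, and grey lines part the role groups, S above G2/M. The 25 G2/M points of the right panel lie left of 0 apart from *Kif11*.

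The share of cells with the marks of the cycle was read at equal depth. After thinning, for which 9 mesenchymal-like cells of WT and 5 of KO were too shallow, at least 3 UMIs of G2/M genes were present in 50.5% of this class in WT (43.5% to 57.5%) and 39.4% in KO (33.4% to 45.8%). The shares differ by -11.0 points (-20.0 to -1.89). At least 10 such UMIs were present in 31.6% in WT (25.3% to 38.4%) and 13.9% in KO (9.91% to 18.9%), differing by -17.6 points (-25.2 to -9.94). Without thinning, the share with at least 3 UMIs was 66.5% in WT and 71.9% in KO, so that the direction of this share turned with depth, while that of the level in CPM did not. In melanoblast-like cells the thinned share was 53.1% in WT (48.8% to 57.5%) and 55.4% in KO (46.7% to 63.8%), differing by 2.25 points (-7.06 to 11.3), and 27.4% and 25.9% had at least 10. Glial-like cells had 37.2% (32.5% to 42.0%) and 45.1% (38.8% to 51.6%), and this difference of 7.96 points (0.21 to 15.7) was 0.0666 points with another draw of the UMIs kept, and at least 10 UMIs were found in 20.3% of both. In erythroid-like cells, at median depths of 4148 and 7295 UMIs, the share with at least 3 was 0 of 5 and 1 of 19 thinned cells, with intervals up to 52.2% and 26.0%, so that 5 cells are too few to set a background for WT. Within the mesenchymal-like clusters the share with at least 3 was 56.4% in WT and 53.5% in KO (cluster 3), and 11 of 41 WT and 45 of 150 KO cells (cluster 4), so that the difference of the class was not detectable inside either cluster.

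S genes gave shares of the same order. At least 3 thinned UMIs were present in 42.5% (WT) and 49.6% (KO) of melanoblast-like cells, which differ by 7.16 points (-2.07 to 16.4), and in 37.7% and 34.6% of glial-like cells, a difference of -3.10 points (-10.5 to 4.55). Mesenchymal-like cells had 41.7% and 32.7%, which differ by -9.08 points (-17.8 to -0.20). The difference was -1.88 with cells thinned to 1000 UMIs, and the shares were 45.5% and 40.6% in cluster 3 and 26.8% and 27.3% in cluster 4. In erythroid-like cells, 0 of 5 WT and 0 of 19 KO cells reached 3 UMIs. Joined per cell, both lists passed in 28.2% of WT and 20.3% of KO mesenchymal-like cells, the G2/M list alone in 22.3% and 19.1%, the S list alone in 13.6% and 12.4%, and neither in 35.9% and 48.2%. In melanoblast-like cells neither passed in 32.8% of WT and 25.2% of KO cells, and in glial-like cells in 46.0% and 42.7%. Such shares are no phase calls, since 17.0% to 23.7% of the cells of these classes lay next to the threshold, with 2 or 3 G2/M UMIs. Cells with many G2/M UMIs were also deeper before thinning. WT melanoblast-like cells with at least 10 had a median of 6038 UMIs, against 3385 for those with 0, and in KO mesenchymal-like cells the medians were 6391 and 5163.

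The classes were then compared within each library, counting only genes past 1.5-fold the same way in both. More G2/M RNA was found in melanoblast-like than in glial-like cells of WT, with a log2 ratio of 0.35 (0.30 to 0.39), and in KO the ratio was 0.03 (-0.03 to 0.10). Against mesenchymal-like cells it was -0.04 (-0.09 to 0.01) in WT and 0.55 (0.49 to 0.62) in KO, and glial-like against mesenchymal-like cells gave -0.38 (-0.44 to -0.33) and 0.52 (0.46 to 0.58). The order of the classes by G2/M level thus differed between the libraries, with mesenchymal-like cells level with the highest class in WT and lowest in KO. The S genes kept melanoblast-like cells on top in both, at log2 ratios of 0.26 and 0.21 over glial-like and 0.14 and 0.33 over mesenchymal-like cells.

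Few single members marked a class in both libraries. Of 43 members read between melanoblast-like and glial-like cells, *Cks1b* (ENSMUSG00000028044) was higher in the former, with a log2 ratio of 0.79 in each library, and 0 were lower, where 6.97% and 19.3% of all 4448 genes were. Between melanoblast-like and mesenchymal-like cells, 4 of 43 were higher and 1 lower, where 11% and 18.3% of all 4587 genes were. The 4 were *Mcm2* (0.76 in WT and 1.40 in KO), *Gmnn* (0.87 and 0.86), *Chaf1b*, a subunit of the histone chaperone CAF-1 (0.59 and 0.87), and *Pbk* (0.85 and 1.39), and the lower gene was *Tyms* (-0.70 and -0.61). Between glial-like and mesenchymal-like cells, 1 of 45 was higher, *Cdc25c*, the phosphatase that switches CDK1 on (0.84 and 1.64), and 0 lower, where 15.2% and 9.58% of all 5071 genes were. Taken over both lists, these counts are near or below what the shares of all genes give, and they were not read as a result about the members. Of the S list alone, 3 of 21 genes were higher in melanoblast-like than in mesenchymal-like cells, and 1 was lower.

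Cell cycle genes outside the 58 were read as a comparison. Of 47 other G2/M genes found, 26 were read in mesenchymal-like cells, and 15 were past 1.5-fold lower in KO and 0 higher, beside 6.4% and 11.1% of all genes. All 26 were below 0, with a median log2 ratio of -0.72, and their sum over 47 genes was 2928 CPM in WT (2826 to 3033) against 1863 CPM in KO (1795 to 1933). Among the 15 were *Ccna2*, which encodes cyclin A2, at 84.7 and 46.3 CPM, *Cenpa*, the histone of centromeres, at 234 and 128 CPM, *Smc4*, a condensin subunit, at 146 and 85.4 CPM, and *Mad2l1*, of the spindle checkpoint, at 59.3 and 29.8 CPM. In melanoblast-like cells 37 were read, of which *Rangap1* was higher and *Dlgap5*, *Kif20a* and *Kif15* lower, beside 6.74% and 6.48% of all genes. In glial-like cells 31 were read, of which *G2e3*, *Lbr*, *Ncaph* and *Plk4* were higher and 0 lower, beside 6.36% and 5.48% of all genes. Of 36 other S genes, 24 were read in mesenchymal-like cells, where *Prim1*, of the primase, was lower at 49.9 and 29.1 CPM and 22 were below 0, with a median log2 ratio of -0.20. In melanoblast-like cells *Mcm3*, *Mcm7* and *Tk1* were past 1.5-fold lower, with *Mcm7*, a helicase subunit, at 146 and 91.8 CPM and *Tk1*, thymidine kinase, at 67.0 and 27.1 CPM. The 36 genes summed there to 1634 CPM in WT against 1361 in KO, with a log2 ratio of -0.26 (-0.36 to -0.17), lower than that of the 28 members. In glial-like cells *Ccne2*, which encodes cyclin E2, was higher, alone among 24. The 47 G2/M genes summed to 2578 and 2462 CPM in melanoblast-like and 2602 and 2866 CPM in glial-like cells. Their KO to WT log2 ratio was -0.65 in mesenchymal-like, -0.07 in melanoblast-like and 0.14 in glial-like cells, lowest in the first and highest in the last as for the 30 members.

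Within a class, the members of each list varied together from cell to cell. Over 525 thinned WT melanoblast-like cells, the median Pearson r of a G2/M gene with the sum of the rest of its list was 0.44 over 24 genes and with the S list 0.00. For 21 S genes the medians were 0.22 with the own and 0.00 with the other list. In the other classes and in KO, medians with the own list ran from 0.45 to 0.62 for G2/M genes and from 0.24 to 0.31 for S genes, and every gene read was closer to its own list than to the other in each class and library. The sums of both lists were nearly unrelated, with r between -0.05 and 0.21 over the 3 classes and both libraries. These values are descriptions, since the cells of a class share a library and a narrow range of depth, and sparse counts hold r down.

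Among 2306 genes outside the 58 with enough UMIs, those that followed the G2/M sum most closely in WT melanoblast-like cells were *Arl6ip1* (r 0.56), *Tubb5* (0.54), *H2afx* (0.54), *Stmn1* (0.54), *H2afz* (0.53), *Tubb4b* (0.52), *Ube2s* (0.51), *Lockd* (0.48), *Tuba1b* (0.47) and *Tuba1c* (0.47). These names were picked after the values were seen, by rank. They include tubulins, the microtubule regulator stathmin (*Stmn1*), histone variants and a partner enzyme of the APC/C (*Ube2s*). In the 139 KO melanoblast-like cells r was 0.27 for *Arl6ip1*, 0.55 for *Tubb5* and 0.50 for *H2afx*, and in 206 WT and 251 KO mesenchymal-like cells *H2afz* had 0.71 and 0.64. The S sum was followed by *Ranbp1* (0.45), *Lig1* (0.43), *2810417H13Rik* (0.42), *Dut* (0.36), *Tuba1b* (0.30), *Dctpp1* (0.30), *Mcm7* (0.30), *Ptma* (0.29), *Mif* (0.29) and *Dnajc9* (0.27). Of these, *Lig1* joins the fragments of the lagging strand and *Dut* clears dUTP. The lowest r with the G2/M sum was that of the ribosomal protein gene *Rps28*, at -0.28, and *Ccnd2*, which encodes a G1 cyclin, stood at -0.25.

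The promoters of the members were read as sequence, because 19 of 25 G2/M genes but 2 of 21 S genes were past 1.5-fold lower in KO mesenchymal-like cells. RefSeq promoters of GRCm38.p6, from 250 bases before to 50 after the start, were matched for 22 S genes, with 23 promoters, and 26 G2/M genes. Both strands were searched. TTTGAA, the cell cycle homology region (CHR), was found in 19 of 26 G2/M promoters (73.1%) and 3 of 23 S promoters (13.0%), and in 17.9% of all 32851 promoters. The E2F words TTTCGCGC, TTTGGCGC and TTTCCCGC, of which 1 sufficed, were found in 11 of 23 S promoters (47.8%) and 1 of 26 G2/M promoters (3.85%), that of *Cdk1*, and in 1.84% of all. CCAAT was common to both lists, in 69.6% of S and 76.9% of G2/M promoters, against 37.4% of all. CCAAT together with TTTGAA was found in 16 G2/M promoters (61.5%) and 3 S promoters, against 6.95% of all. The variant TTCGAA was found in 0 S and 2 G2/M promoters and 1.56% of all. Among the G2/M genes past the fold in mesenchymal-like cells, *Nusap1*, *Birc5*, *Cks2*, *Ccnb1* and *Cenpe* had promoters without TTTGAA. *Hmgb2*, *Cdk1*, *Ube2c*, *Cenpf*, *Ccnb2*, *Aurka*, *Kif23*, *Cdc20*, *Cdca3*, *Cdca8*, *Plk1* and *Hmmr*, also past the fold, had promoters with it. Promoters of *Pbk* and *Tpx2* were not matched. *Kif11*, the gene that did not follow the rest, had one with it, as did *Top2a*, *Cks1b* and *Mki67*, which also did not pass the fold. *Tacc3*, likewise short of the fold, had one without it, and that of *Aurkb* was not matched. Whether the word goes with the ratio was not tested. A match is a run of letters and shows no binding.

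The stretches around an E2F word are shown for 4 S promoters to let the words be seen in place, read 5′ to 3′ along the gene from RefSeq (GRCm38.p6), 48 bases each, with the matching letters of either strand in capitals. They are, in order, *Mcm6* at chr1:128359784-128359831, minus strand, *Mcm5* at chr8:75109336-75109383, plus strand, *Uhrf1* at chr17:56304108-56304155, plus strand, *Pola1* at chrX:93632266-93632313, minus strand.
Mcm6: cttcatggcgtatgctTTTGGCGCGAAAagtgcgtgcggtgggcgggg
Mcm5: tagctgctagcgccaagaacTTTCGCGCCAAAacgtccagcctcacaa
Uhrf1: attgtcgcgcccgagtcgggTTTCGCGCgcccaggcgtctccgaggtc
Pola1: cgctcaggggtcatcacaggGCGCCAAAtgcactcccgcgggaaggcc

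For 3 G2/M genes the 100 bases before the start are shown, from the same source and in the same direction, with TTTGAA and CCAAT of either strand in capitals. They are *Hmgb2* at chr8:57511743-57511842, plus strand, *Top2a* at chr11:99024190-99024289, minus strand, *Kif11* at chr19:37376282-37376381, plus strand. In mesenchymal-like cells *Hmgb2* was past the fold, *Top2a* fell short of it and *Kif11* had a ratio above 0, and all 3 stretches hold both words.
Hmgb2: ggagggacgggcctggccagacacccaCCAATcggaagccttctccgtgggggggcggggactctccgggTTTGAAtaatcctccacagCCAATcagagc
Top2a: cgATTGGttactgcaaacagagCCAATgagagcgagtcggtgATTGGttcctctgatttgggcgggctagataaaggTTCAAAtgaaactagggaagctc
Kif11: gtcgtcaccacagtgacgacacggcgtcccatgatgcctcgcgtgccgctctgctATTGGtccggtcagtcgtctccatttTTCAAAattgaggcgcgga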

How the data were processed

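The authors deposited raw UMI counts of called cells for 1 WT and 1 KO library, made with Cell Ranger 2.2.0 from 10x 3′ reads aligned to mouse with the reporter and Cre added. From these counts, cells with at least 100 genes, at most 40000 UMIs and at most 10% mitochondrial UMIs were kept, which removed 6 WT and 18 KO barcodes. Both libraries were clustered together in scanpy 1.11.5 (Python 3.11.15, igraph 0.11.9), with scipy 1.17.1 for intervals, pandas 2.3.3, numpy 2.4.6 and anndata 0.12.19 for tables and matplotlib 3.10.9 for figures. Of 2000 variable genes 1974 were used, with 30 components, 15 neighbours and Leiden resolution 1. A list of 223 genes was held out of the clustering: cell cycle genes with the 58 members, histone and a few tubulin-related genes, sex-linked genes, the reporter, Cre and *Hira*. Clusters were named from 13 marker lists where at least 3 markers were raised. None was named whose 10 leading genes held more markers of another list than of its own. Cell types are thus rebuilt from expression. The unnamed cluster, of 12 WT and 13 KO cells, had 5 of 11 mesenchymal markers raised. Its 10 leading genes held 1 marker of another list and 0 of that one. Doublets called by Scrublet, 9 in WT and 6 in KO, were kept. Levels are UMIs summed over a class, with exact Poisson intervals, and ratios carry exact conditional binomial intervals. Shares used cells thinned to 2000 UMIs and a threshold of 3 UMIs per list, with exact binomial intervals, and differences of shares Newcombe intervals. A gene was read singly with at least 50 UMIs over both libraries and named when its ratio passed 1.5-fold, whatever its interval. Between classes it had to pass in both libraries. A count of 0 leaves room for up to 3 UMIs. Cells of a library are not replicates, and no test between genotypes was made. Correlations used genes with at least 20 thinned UMIs. On Poisson counts simulated from whole-library sums, the intervals of the ratios covered the set ratio for 95.9% of 10324 genes. That simulation follows the model behind the intervals and holds no spread between cells. It therefore checks the calculation and does not show how well the intervals cover in these data. Alternatives tried were other filters, resolutions, each library clustered alone, cell cycle genes kept in, doublets left out, equal weight per cell, thinned ratios, another seed, no thinning and other minimum counts. The members and the lists were chosen with earlier results of these data known.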

Additional observations from a re-analysis of the deposited data

Results flagged for a closer look

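The log2 ratio of KO to WT had opposite signs in different cell classes for 2 results, which is what marked them. For the summed G2/M genes it was -0.21 in melanoblast-like and 0.10 in glial-like cells, and -0.80 in mesenchymal-like beside the same 0.10 in glial-like cells. For *Mcm4* it was 0.70 in melanoblast-like and -0.69 in glial-like cells, on 55 and 30 and on 44 and 20 UMIs, with an interval that reached 0 in the latter. With cells thinned, the *Mcm4* ratios were 1.05 and -0.18, so that the glial-like one no longer passed 1.5-fold. With 1 library of each genotype these differences were not tested. Sex, library, depth, the RNA of other cell types and the makeup of each class by cluster differ between the libraries along with genotype, and their parts cannot be told apart.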

How the results depend on the processing

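Over the alternative settings, 51 of 58 ratios of summed levels stayed within the interval of the main value, 7 moved and 53 kept their sign. The G2/M ratio ranged from -0.85 to -0.61 in mesenchymal-like, -0.24 to -0.13 in melanoblast-like and 0.02 to 0.13 in glial-like cells, and the number of G2/M genes past 1.5-fold in mesenchymal-like cells from 13 to 23. Of 238 ratios of named genes 228 stayed, 9 moved and 1 reversed. No paired analysis was possible because each genotype has 1 library, and none could be left out in turn. Values below left their interval or changed their side of a threshold, and the cause was not tested.

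With each cell thinned to 2000 UMIs, the summed ratio was 0.0889 for S and -0.13 for G2/M genes in melanoblast-like and 0.0179 for G2/M genes in glial-like cells. In melanoblast-like cells *Pola1* reversed to 0.11 and *Cdc45* moved to -0.40, and in mesenchymal-like cells *Nasp* moved to -0.33, *Rrm2* to -1.94, *Tpx2* to -1.70, *Pbk* to -1.47 and *Kif23* to -2.51. With each library clustered alone, *Hmgb2* moved to -0.60, *Birc5* to -0.71 and *Cks2* to -0.54 in mesenchymal-like cells.

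Other named genes stayed in their interval but fell short of 1.5-fold under some settings. With thinning these were *Plk1* (-0.0627) and *Cdk1* (-0.57) in mesenchymal-like and *Mcm4* (-0.18) in glial-like cells. With each library clustered alone they were *Cdk1* (-0.55), *Tpx2* (-0.46), *Pbk* (-0.577) and *Cdca8* (-0.47) in mesenchymal-like cells. *Cdca8* was also short at resolution 0.5 (-0.54) and 2 (-0.55), and *Plk1* at 0.5 (-0.46). With at most 5% mitochondrial UMIs, *Mcm4* in glial-like (-0.54) and *Blm* in melanoblast-like cells (0.556) were short, and *Blm* was too with doublets left out (0.580).

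With equal weight per cell, S genes had 0.0583 in melanoblast-like cells. For G2/M genes in mesenchymal-like cells, Leiden resolution 0.5 gave -0.70, resolution 2 gave -0.73 and each library clustered alone -0.61. Between classes, the G2/M ratio of melanoblast-like to mesenchymal-like cells was 0.0406 (WT, resolution 0.5), 0.0668 (WT, clustered alone), 0.47 (KO, resolution 2) and 0.44 (KO, clustered alone). That of glial-like to mesenchymal-like cells was -0.31 (WT, resolution 0.5), -0.29 (WT, clustered alone), 0.58 (KO, at most 5% mitochondrial UMIs), 0.44 (KO, resolution 2) and 0.43 (KO, clustered alone).

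Without thinning, the share of cells differed by 14.5 points for G2/M genes in melanoblast-like cells, 9.74 for S and 16.6 for G2/M genes in glial-like cells, and 5.36 for G2/M genes in mesenchymal-like cells. With thinning from seed 1 it was 0.0666 for G2/M genes in glial-like cells. With at least 100 UMIs per gene, 0 S genes passed 1.5-fold in melanoblast-like and 0 in glial-like cells. With at least 20, 2 G2/M genes passed in melanoblast-like and 1 in glial-like cells. With each library clustered alone, 2 G2/M genes passed in melanoblast-like cells.

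Single clusters were added after the data had been seen. In cluster 1 (melanoblast-like) the G2/M ratio was -1.30, the share difference -36.5 points, and 25 G2/M genes and 1 S gene passed, but at resolution 2 this cluster broke up. In cluster 3 (mesenchymal-like) the ratio was -0.59 for G2/M and -0.0814 for S genes, and 11 G2/M genes passed. In cluster 4 the G2/M ratio reversed to 0.10, the S ratio was 0.22, the share differences were 3.17 points for G2/M and 0.504 for S genes, and 0 G2/M genes passed. With a stricter minimum of genes per cell only 6 KO melanoblast-like cells kept that name, so no value was made for this class. A cluster of 5 WT and 142 KO cells had 8 of 12 melanoblast markers raised. However, 4 globin genes were among its 10 leading genes, and it was left unnamed. The part of this globin RNA in the KO melanoblast-like values was not tested. Depth limits single genes under 50 UMIs, and 12 members were below this in mesenchymal-like cells.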
